A study of Mus musculus with 22 samples.

Results

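The genes described here mark or equip lung macrophages. They are 36 genes of 6 roles, chosen by name for what they are known to do in these cells, with earlier results of these arrays known. There are 11 genes of alveolar resident macrophages, 6 of monocytes and interstitial macrophages, 6 of the lysosome, 6 of lipid-associated macrophages, 5 receptors for debris and dying cells, and 2 genes of colony-stimulating factor signalling. Of the 36, 34 matched a probe through its RefSeq accession. All 34 were above background in some group of mice, not necessarily in every group, among 16433 named genes that were. Cd68 and Ly6c2 were not analysed here.

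Alveolar macrophages live in the airspace, where they clear surfactant and take up inhaled particles. They depend on granulocyte-macrophage colony-stimulating factor and on the nuclear receptor Pparg. After injury, monocytes leave the blood and become macrophages under the control of the receptor Csf1r and its ligand Csf1. Macrophages that handle lipid and cell debris are known for Spp1, Gpnmb, Trem2 and Lgals3, which are also made by epithelial and other cells.

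Mitsui7 is a long and rigid multiwalled carbon nanotube. Lung RNA came from 22 female C57BL/6 mice, 8 weeks old at the start, whose right lungs were taken 24 hours after a single intratracheal instillation. The control group (n = 5) received the vehicle, saline with cell-free lavage fluid of other mice, and the exposed groups received the vehicle with 18 µg (n = 6), 54 µg (n = 5) or 162 µg (n = 6) of Mitsui7. Each mouse gave 1 dual-colour array, with lung RNA in Cy5 and a reference RNA from mouse cell lines in Cy3, so each level is the log2 of Cy5 over Cy3. Levels of different genes cannot be set against each other on this scale. Whole lung RNA was measured, so fewer cells of a type and less RNA per cell cannot be told apart. Because the deposited samples are separate mice, the spread within a group is that between animals.

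The arrays lay on 7 slides of 3 or 4 arrays, and 2 slides held no control. Between 70.5% and 77.7% of the probes exceeded background in control lungs, and between 52.1% and 83.5% in those given 162 µg. Markers of type II alveolar cells, which define lung tissue, had a mean log2 ratio of 4.65 to 5.77 in every mouse. This marker list includes Cd36 and Lyz1, which are also among the genes described here. Control replicate 2 stood apart. The median over 11 neutrophil markers was 1.82 above the control mean in that mouse (log2), while the other controls lay between -0.71 and -0.32. At 162 µg, replicate 2 reached 2.10. The changes of Marco, Chil3, Fabp1, Csf1r, Csf1, Lgals3 and Spp1 and the median of the monocyte list are therefore also given without control replicate 2. The other values against controls include that mouse.

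Promoters show what these genes share in sequence. Of the 36 genes, 30 had an entry in the RefSeq promoter table (build GRCm38.p6). The 250 bases before the first start listed for each gene were searched on both strands. Further starts, listed for Apoe, Ly6c2, Ms4a7, Pparg and Spp1, were not searched. The 7-letter core GAGGAAG, bound by PU.1, the transcription factor that directs macrophage development, was found in 11 of 30 promoters (36.7%) against 10.4% of 27025 promoters in all. The set is shown because it spans 5 of the 6 roles. Each window holds the core, or its reverse complement, in capitals with 12 bases on either side, 5′ to 3′ on the strand of the gene.
Axl, chr7:25788846-25788876, minus strand: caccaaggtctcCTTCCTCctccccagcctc
Cd5l, chr3:87357802-87357832, plus strand: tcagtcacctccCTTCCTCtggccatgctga
Ctsk, chr3:95498965-95498995, plus strand: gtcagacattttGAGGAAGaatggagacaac
Fabp1, chr6:71199822-71199852, plus strand: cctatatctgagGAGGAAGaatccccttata
Fcgr1, chr3:96294007-96294037, minus strand: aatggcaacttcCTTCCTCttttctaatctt
Ly6c2, chr15:75112061-75112091, minus strand: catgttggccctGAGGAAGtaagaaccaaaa
Marco, chr1:120505152-120505182, minus strand: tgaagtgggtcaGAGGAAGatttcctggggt
Mrc1, chr2:14229234-14229264, plus strand: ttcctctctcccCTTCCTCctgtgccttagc
Siglecf, chr7:43351263-43351293, plus strand: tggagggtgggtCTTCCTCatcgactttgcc
Spp1, chr5:104434986-104435016, plus strand: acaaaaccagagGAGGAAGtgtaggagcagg
Trem2, chr17:48346348-48346378, plus strand: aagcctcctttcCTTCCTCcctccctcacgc
Ctsk and Mrc1 held a further copy each, 59 and 36 bases before the start. Among the genes with the core were Marco and Spp1, called at 162 µg below, and Fabp1, Siglecf and Fcgr1, whose estimates were below 0 at each dose. Genes that carried the core thus did not share a direction.

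The longer PU.1 site GAGGAAGT, which contains the core, was in 2 of 30 (6.67%) against 2.44% of all promoters. The AP-1 site TGANTCA was in 4 (13.3%) against 6.87%, the E-box CACGTG in 1 (3.33%) against 6.05%, and the antioxidant response element TGACNNNGC, bound by NRF2, in 2 (6.67%) against 10.1%. The binding site of NF-kB, a transcription factor of inflammation, was in 3 (10.0%), namely Cd9, Csf1 and Marco, against 1.4% of all promoters. No test was made of these shares, and a match of letters is not evidence of binding. The 250 bases of Marco (chr1:120505025-120505274, minus strand) and of Csf1 (chr3:107760470-107760719, minus strand) are shown with these matches in capitals, because both genes return in the results. The NF-kB match began 30 bases before the start of Marco and 154 bases before that of Csf1.
Marco: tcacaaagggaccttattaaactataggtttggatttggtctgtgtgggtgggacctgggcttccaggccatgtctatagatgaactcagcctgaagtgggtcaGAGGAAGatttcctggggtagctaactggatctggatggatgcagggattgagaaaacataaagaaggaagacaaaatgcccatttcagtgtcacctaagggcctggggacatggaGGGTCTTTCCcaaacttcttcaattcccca
Csf1: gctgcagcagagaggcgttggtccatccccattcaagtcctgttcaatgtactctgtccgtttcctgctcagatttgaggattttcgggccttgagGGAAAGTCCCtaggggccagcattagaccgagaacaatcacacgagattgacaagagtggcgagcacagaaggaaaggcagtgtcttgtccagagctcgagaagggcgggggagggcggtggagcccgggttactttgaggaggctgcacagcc

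Across the 34 genes, few passed the test. A gene was called where limma gave an adjusted p of at most 0.05 and the change was at least 1.5-fold. At 18 µg Chil3 alone was called, higher, 1 of 34 against 2.07% of all named genes (0.633% higher, 1.44% lower). In no gene did every mouse at 18 µg lie above every control, against 1.42% of all genes, or below, against 1.98%, and 19 of 34 estimates were above 0, against 46.4%. At 54 µg none was called, against 0.389% of all genes (0.249% higher, 0.140% lower), and 10 of 34 had an unadjusted p under 0.05 in limma against 13.9% of all genes. For Csf1 and Lgals3 every measured mouse at 54 µg lay above every control, against 1.51% of all genes, while no gene had every mouse below, against 1.80%, and 17 of 34 estimates were above 0, against 47.4%. At 162 µg 3 were called, Marco, Lgals3 and Spp1, all higher, against 6.88% of all genes (3.34% higher, 3.54% lower), and 23 of 34 estimates were above 0, against 48.8%. In 3 genes every mouse at 162 µg lay above every control, against 3.72% of all genes, and in 2 every mouse lay below, against 4.48%. An unadjusted p under 0.05 was reached by 19 of 34 genes at 162 µg against 28.9% of all genes. The median log2 fold change of the 34 was 0.17, 0.02 and 0.22 at the 3 doses, beside -0.02, -0.01 and -0.01 over all genes.

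**Figure D1:**
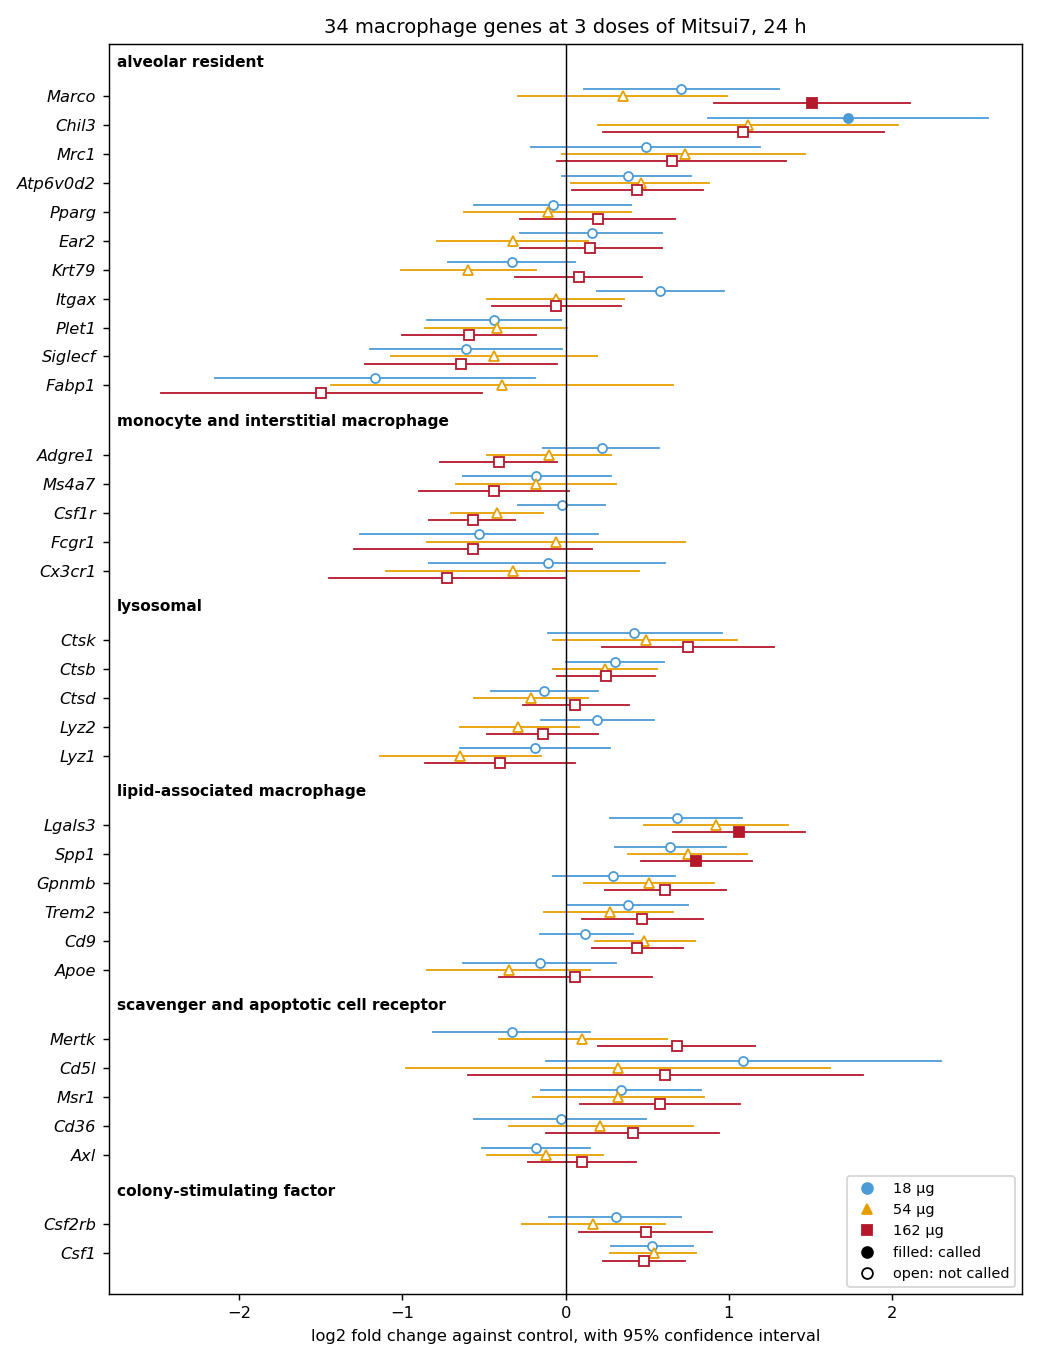
Log2 fold change against control (x axis) of the 34 genes, grouped by role, at 18 µg (circles), 54 µg (triangles) and 162 µg (squares), with 95% confidence intervals from limma. Filled symbols mark called genes: Chil3 at 18 µg, and Marco, Lgals3 and Spp1 at 162 µg. All 5 monocyte and interstitial genes lie below 0 at 54 µg and 162 µg.

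The alveolar resident genes split. The scavenger receptor Marco and the chitinase-like lectin Chil3 were higher, the lipid-binding Fabp1 and the lectin Siglecf had estimates below 0 at each dose, and the median of the 11 genes stayed near 0, at 0.16, -0.11 and 0.15 for the 3 doses. Without control replicate 5 the first and the last were both -0.02. With arrays centred on their median instead of loess they were -0.19 and -0.15, beside -0.26 and -0.19 over all genes.

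Marco binds unopsonised particles and bacteria on alveolar macrophages. Its level was 3.81, 3.87, 5.78, 4.39 and 4.11 in the controls (log2 ratio), 4.44 to 5.66 at 18 µg with a median of 5.09, and 4.35, 5.14, 4.49, 5.11 and 5.47 at 54 µg. At 162 µg it was 5.45 to 6.44 with a median of 5.98. Control replicate 3 was high and overlapped the exposed mice, while the other controls lay below every mouse at 162 µg. Marco rose at 162 µg by 1.51 (log2, 2.85-fold, standard error 0.28, adjusted p = 0.00457), and 4 of 6 mice were above all controls. Without control replicate 2 the change was 1.46, and without control replicate 3 it was 1.81. Within the 4 slides that held both groups the difference was 0.29 to 2.33. At 18 µg and 54 µg the estimates were 0.71 (adjusted p = 0.232) and 0.35 (adjusted p = 0.838). Centring arrays on their median ended the call at 162 µg, with a change of 1.14 (adjusted p = 0.210).

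Chil3 encodes Ym1, a secreted lectin of alveolar macrophages and neutrophils. Its level was 4.88, 5.72, 5.31, 5.39 and 5.03 in the controls. It ranged from 5.41 to 8.07 at 18 µg (median 7.30), was 7.02, 6.14, 5.25, 6.14 and 7.08 at 54 µg, and ranged from 5.74 to 6.63 at 162 µg (median 6.24). The spread was widest at 18 µg, with an SD of 1.01 (n = 6) against 0.32 (n = 5) in controls and 0.31 (n = 6) at 162 µg. Chil3 rose at 18 µg by 1.73 (3.33-fold, standard error 0.41, adjusted p = 0.0454), and 5 of 6 mice exceeded all controls. At 162 µg all 6 mice exceeded all controls, yet the change of 1.09 did not pass (adjusted p = 0.146). The difference between 162 µg and 18 µg was -0.65 (95% confidence interval -1.45 to 0.16, adjusted p = 0.448). The call at 18 µg was fragile: leaving out single mice ended it in 15 of 22 fits, the lowest change being 1.40 when control replicate 1 was left out and the highest 2.03 when control replicate 2 was. It was also lost with normexp background correction (adjusted p = 0.0556), in the deposited log2 table (0.0887), with only the 2 groups compared (0.0857) and with median centring (0.394).

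Fabp1, a fatty acid-binding protein listed among alveolar macrophage genes, had the lowest estimates of the 34 at 18 µg and 162 µg. Its level was 4.57, 5.06, 4.90, 4.16 and 5.03 in the controls and 1.13 to 3.99 at 162 µg (median 3.04). All 6 mice at 162 µg lay below all controls, but the mice at 18 µg reached from 1.72 to 5.82 (median 3.09) and overlapped them. The change of -1.50 at 162 µg (standard error 0.47) missed the threshold with an adjusted p of 0.0694, and that of -1.17 at 18 µg with 0.226. Without control replicate 2 it was -1.81 with an adjusted p of 0.0436. The 5 mice at 54 µg gave 4.04, 4.50, 3.34, 3.92 and 3.49.

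**Figure D2:**
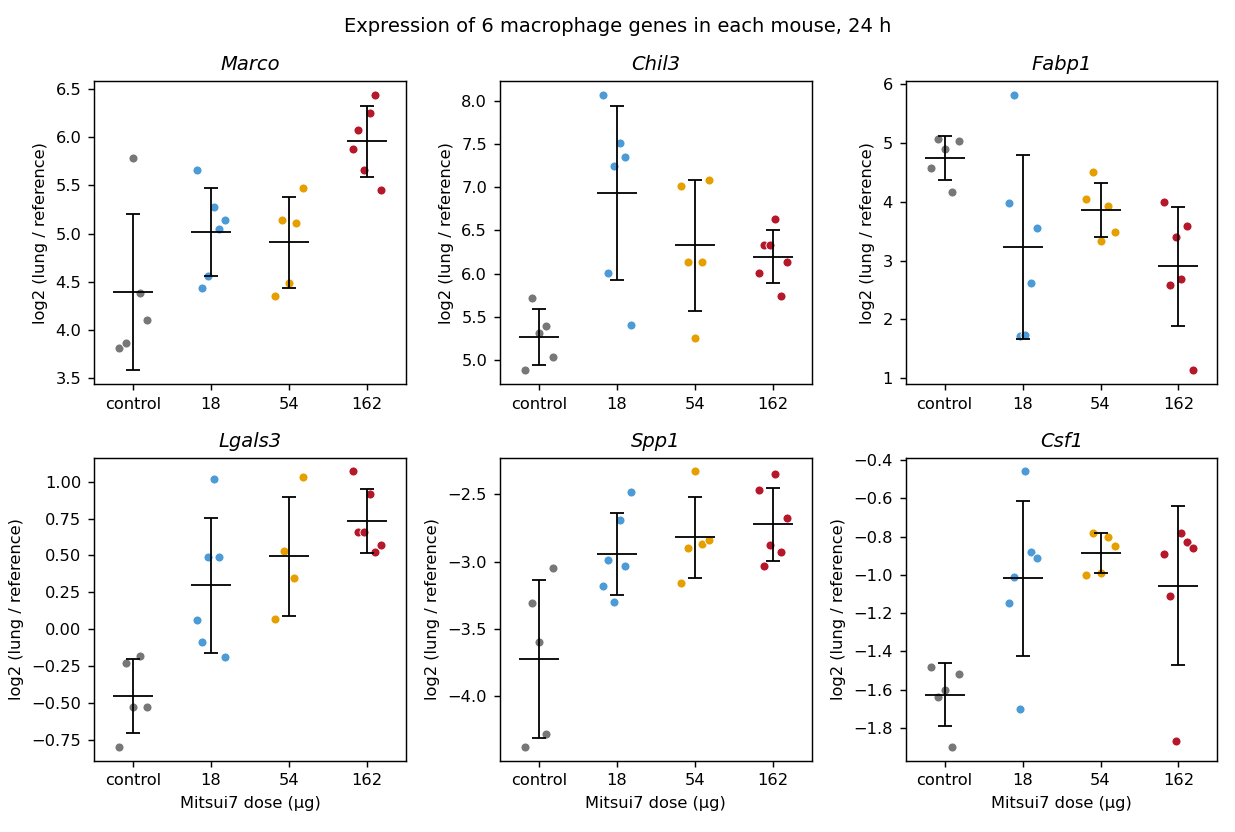
Log2 ratio of lung to reference RNA (y axis) of 6 genes in each mouse, by dose of Mitsui7 (x axis). Points are mice, and bars are the mean with SD. All 6 mice at 162 µg lie above all controls for Chil3, Lgals3 and Spp1 and below them for Fabp1, while 1 control overlaps for Marco.

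None of the other 8 resident genes was called against controls. Siglecf, a sialic acid-binding lectin that also marks eosinophils, had changes of -0.61, -0.44 and -0.64 at the 3 doses, with adjusted p of 0.231 or more. The surface protein Plet1 gave -0.44, -0.42 and -0.59 (adjusted p = 0.0895 at 162 µg), while a dimmer probe of it gave -0.06, -0.05 and -0.22 (adjusted p = 0.752 at 162 µg). The mannose receptor Mrc1 gave 0.49, 0.73 and 0.65, and the proton pump subunit Atp6v0d2 0.38, 0.46 and 0.44. For the integrin Itgax (CD11c) the value was 0.58 at 18 µg (adjusted p = 0.126) and -0.06 at both higher doses. The keratin Krt79, the ribonuclease Ear2 and the nuclear receptor Pparg lay between -0.60 and 0.20 over the 3 doses. Ear2 belongs to a family of near-identical genes, so its probe may also report its relatives.

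The 5 monocyte and interstitial macrophage genes of the set lay below controls at 54 µg and 162 µg, though none was called. Further genes of these cells, given below, had medians above 0 at 162 µg. All 5 estimates were below 0 at 54 µg and at 162 µg. The median was -0.11, -0.18 and -0.57 at 18, 54 and 162 µg. In single mice, the median over the 5 genes was -0.37 to 0.44 relative to the control mean in controls and -0.91 to -0.38 at 162 µg. Every mouse at 162 µg was thus below every control, but by a narrow margin, between control replicate 4 at -0.37 and 162 µg replicate 5 at -0.38. By the mean log2 ratio over the same genes the groups overlapped, at 0.78 to 1.69 in controls and -0.07 to 0.79 at 162 µg. At 54 µg replicate 3 stood at -1.30, a value that rests on Csf1r and Cx3cr1 alone because the other genes had outlier spots, and the remaining mice lay between -0.39 and 0.05. The median of the fitted changes at 162 µg was -0.36 without control replicate 2 and -0.33 without 162 µg replicate 1.

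Csf1r, the receptor by which monocytes and macrophages sense Csf1, gave the clearest value in this group. Its level was 1.67, 1.99, 1.45, 1.18 and 1.47 in controls, 1.19 to 1.79 at 18 µg (median 1.35), 1.41, 1.18, 0.83, 0.82 and 0.82 at 54 µg, and 0.33 to 1.13 at 162 µg (median 0.86). All 6 mice at 162 µg lay below all controls and below all mice at 18 µg. The change at 162 µg was -0.57 (standard error 0.12, adjusted p = 0.0111), which passed the adjusted p but fell just short of 1.5-fold. Without control replicate 2 it was -0.44 (adjusted p = 0.0385), and within 4 slides the difference was -1.20 to -0.24. The probes of Csf1r did not agree: the other pair, both dimmer, gave -0.16 (adjusted p = 0.725) and 0.11 (adjusted p = 0.782) at 162 µg.

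The chemokine receptor Cx3cr1, high on patrolling monocytes and on interstitial macrophages, gave -0.11, -0.32 and -0.73 at the 3 doses on its brightest probe (adjusted p = 0.276 at 162 µg). A second probe of Cx3cr1 was called lower at 162 µg, at -0.72 (standard error 0.18, adjusted p = 0.0275). Adgre1, the F4/80 antigen, gave 0.22, -0.10 and -0.41. The Fc receptor Fcgr1 (CD64) gave -0.53, -0.06 and -0.57, and its control mean was raised by control replicate 2, at 2.26 where the other controls were 0.17 or less. Ms4a7, a membrane protein of mature macrophages, gave -0.18, -0.18 and -0.44, with 1 mouse of each exposed group left out as an outlier spot. On the brightest probe of each of these 4 genes, the adjusted p at 162 µg was 0.197 or more.

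Other genes of these cells, counted from lists that hold no member, were mixed. Of 20 further alveolar macrophage genes, 2 were called higher and 2 lower at 162 µg, against 3.34% of all genes called higher and 3.54% lower. The median was 0.25. They included lipoprotein lipase (Lpl) at 1.23 (adjusted p = 0.00947), the potassium channel partner Kcnip4 at -1.01 (adjusted p = 0.00777) and transglutaminase 2 (Tgm2) at 0.89 (adjusted p = 8.59e-04). Lpl was -0.59 at 18 µg (adjusted p = 0.279), and its 6 mice at 162 µg lay above all mice of both other groups compared. Of 17 further monocyte genes above background, 2 were called higher at 162 µg and none lower, beside the same shares of all genes, with a median of 0.51. The called genes were Arg1, the arginase of wound-type macrophages, at 1.76 (adjusted p = 0.0328), and Ly6c1 at 1.35 (adjusted p = 5.65e-04). Arg1 was also called at 18 µg (2.06, adjusted p = 0.0407) and at 54 µg (2.92, adjusted p = 0.0269, 4 of 5 mice with a value). Ly6c1 is also made by endothelial cells and is nearly identical to Ly6c2. Of 17 further interstitial macrophage genes above background, limma called none at 162 µg, 3 had an unadjusted p under 0.05, and the median was 0.19.

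Colony-stimulating factor signalling was described through the ligand Csf1 and the shared receptor chain Csf2rb. Csf1 was above controls at every dose by about the same amount. Its level was -1.48, -1.64, -1.60, -1.90 and -1.52 in controls and -1.0, -0.78, -0.99, -0.80 and -0.85 at 54 µg, where all 5 mice exceeded all controls. It ranged from -1.70 to -0.46 at 18 µg (median -0.96) and from -1.87 to -0.78 at 162 µg (median -0.87). In both of these groups replicate 3, on the same slide as control replicate 4, lay among the controls and the other 5 mice above them. The log2 fold change of Csf1 was 0.53 at 18 µg (adjusted p = 0.0360), 0.54 at 54 µg (0.107) and 0.48 at 162 µg (0.0210), each with a standard error of 0.12 or 0.13 and each under 1.5-fold. A second probe gave 0.62 at 162 µg and was called (adjusted p = 0.0247), and the remaining one gave 0.48 (adjusted p = 0.0474). Without control replicate 2 the adjusted p of the brightest probe was 0.0692 at 18 µg and 0.0660 at 162 µg, with changes of 0.48 and 0.43.

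Csf2rb, the signalling chain shared by the receptors for granulocyte-macrophage colony-stimulating factor, interleukin 3 and interleukin 5, gave 0.31, 0.17 and 0.49 (adjusted p = 0.171 at 162 µg). Of 9 further genes of this signalling, 2 were called higher at 162 µg, against 3.34% of all genes. The neutrophil growth factor Csf3 was at 0.74 (adjusted p = 0.00550) with all 6 mice above all controls, as in 3.72% of all genes. Il34, the other ligand of Csf1r, was at 0.67 (adjusted p = 0.00833) with 5 of 6 mice measured and 3 of these above all controls. The median of the 9 was -0.08.

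The lipid-associated genes held both Lgals3 and Spp1. At 162 µg all 6 were above 0 and 2 were called, against 3.34% of all genes called higher. Their median was 0.34, 0.50 and 0.54 at the 3 doses. In single mice, the median over the 6 genes relative to the control mean lay between -0.23 and 0.19 in controls. It lay between 0.27 and 0.60 with 18 µg, between 0.23 and 0.65 with 54 µg and between 0.18 and 0.96 with 162 µg. By this median the groups at 18 µg and 54 µg did not overlap with controls, and at 162 µg 1 mouse did. The mean log2 ratio over the same genes, however, overlapped with controls in every exposed group. Control replicate 3 reached -0.05 by that measure, a value that no mouse given 18 µg exceeded. The lowest mouse given 54 µg stood at -0.41, and the lowest given 162 µg at -0.07. With median centring the medians at 18 µg and 162 µg were -0.06 and 0.22, beside -0.26 and -0.19 over all genes.

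Lgals3 encodes galectin-3, a lectin that gathers on damaged vesicles. Its level was -0.80, -0.23, -0.53, -0.18 and -0.53 in controls, -0.19 to 1.02 at 18 µg (median 0.27) and 0.52 to 1.07 at 162 µg (median 0.66). At 54 µg it was 0.07, 0.53, 0.35 and 1.03, with replicate 2 left out as an outlier spot. All measured mice at 54 µg and 162 µg lay above all controls. Lgals3 rose at 162 µg by 1.06 (2.09-fold, standard error 0.19, adjusted p = 0.00393), and by 1.10 without control replicate 2. The estimates at 18 µg and 54 µg were 0.68 (adjusted p = 0.0867) and 0.92 (adjusted p = 0.0984). Median centring gave 0.74 (adjusted p = 0.575) at 162 µg and ended the call.

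Spp1 encodes osteopontin, a secreted matrix and signalling protein. Its level was -4.38, -3.31, -3.60, -4.28 and -3.05 in controls, -3.30 to -2.48 at 18 µg (median -3.01), -3.16, -2.90, -2.33, -2.87 and -2.84 at 54 µg, and -3.03 to -2.35 at 162 µg (median -2.78). Every mouse at 162 µg lay above every control, by a narrow margin over control replicate 5. Spp1 rose at 162 µg by 0.80 (1.74-fold, standard error 0.16, adjusted p = 0.00670), and by 0.84 without control replicate 2. At 18 µg and 54 µg it was 0.64 (adjusted p = 0.0571) and 0.75 (adjusted p = 0.102). The call was lost with median centring (0.44, adjusted p = 0.595) and with only the 2 groups compared (0.73, adjusted p = 0.0765).

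The remaining 4 of these genes were not called. The membrane glycoprotein Gpnmb gave 0.29, 0.51 and 0.61, with an adjusted p of 0.0513 at 162 µg. The tetraspanin Cd9 gave 0.12, 0.48 and 0.44 (adjusted p = 0.0627 at 162 µg). Trem2, a receptor for lipids and debris, gave 0.38, 0.27 and 0.47. Apoe, the lipid carrier, gave -0.16, -0.35 and 0.06, and was the member of the group nearest to 0 at 162 µg.

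The receptors for debris and dying cells had a median of -0.03, 0.21 and 0.58 at the 3 doses, and none of the 5 was called against controls. The scavenger receptor Msr1 gave 0.34, 0.32 and 0.58 (adjusted p = 0.176 at 162 µg). Cd36, a lipid receptor also abundant in endothelium and fat, gave -0.03, 0.21 and 0.41, and spread from 3.67 to 6.11 among the mice at 162 µg against 4.12 to 4.54 in controls. Cd5l, secreted by tissue macrophages, spread from -0.74 to 4.10 among the mice at 18 µg, with a change of 1.09 (standard error 0.58). The receptor kinase Axl gave -0.18, -0.12 and 0.10, and its relative Mertk -0.33, 0.10 and 0.68 (adjusted p = 0.0951 at 162 µg).

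The lysosomal genes stayed near controls, with a median of 0.19, -0.21 and 0.06 and none of 5 called. With median centring the median at 162 µg was -0.21, beside -0.19 over all genes. The cathepsin Ctsk was the highest, at 0.42, 0.49 and 0.75 (adjusted p = 0.0975 at 162 µg), and 5 of 6 mice at 162 µg were above all controls. Without the 2 slides that held no control, an alternative chosen after seeing the data, Ctsk was called at 162 µg with a change of 0.76 (adjusted p = 0.00272). The cathepsins Ctsb and Ctsd gave 0.25 and 0.06 at 162 µg, while a dimmer probe of Ctsd gave 0.69 (standard error 0.28, adjusted p = 0.187). The lysozymes Lyz1 and Lyz2 gave -0.40 and -0.14 there, and since they are close copies, their probes may share signal. Lyz1 is also made by type II alveolar cells.

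Of 32 further lysosome genes, 5 were called higher and 1 lower at 162 µg, against 3.34% of all genes called higher and 3.54% lower. The median was 0.18. They included the tetraspanin Cd63 at 0.86 (adjusted p = 0.00815), the cholesterol carrier Npc2 at 0.66 (adjusted p = 0.0197) and, lower, the hexosaminidase subunit Hexa at -0.85 (adjusted p = 0.00560). For both Cd63 and Hexa all 6 mice at 162 µg lay outside the range of the controls, Cd63 above and Hexa below.

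Set side by side at 162 µg, the alveolar resident, lysosomal and monocyte lists had medians of 0.15, 0.06 and -0.57. The lists of further alveolar macrophage, lysosome, monocyte and interstitial macrophage genes had medians of 0.25, 0.18, 0.51 and 0.19. The negative median thus held for the 5 monocyte and interstitial genes of the set and not for the further lists. The difference between lists was not tested, since the members were chosen with earlier results known.

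**Figure D3:**
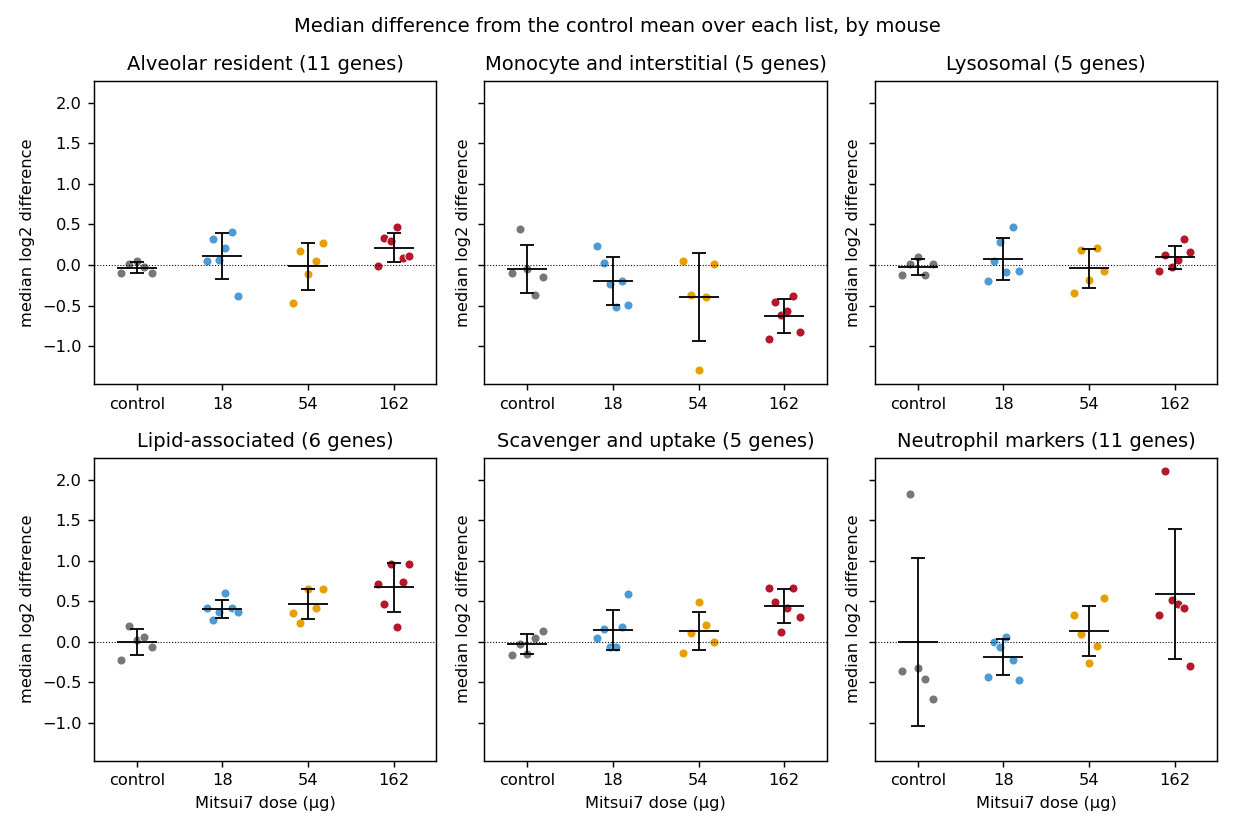
Median over each list of the log2 difference from the control mean (y axis), one point per mouse, by dose (x axis), with the mean and SD of each group. Mice at 162 µg lie narrowly below all controls for the monocyte and interstitial list, from -0.91 to -0.38 where the lowest control is at -0.37. Control replicate 2 stands at 1.82 in the panel of neutrophil markers.

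The highest and the lowest dose were compared directly in the same fit, whose slide terms and spread also draw on the control and 54 µg mice. Mertk rose from 18 µg to 162 µg, while Adgre1 and Itgax fell. These were 3 of 34 genes called, against 4.99% of all genes (3.33% higher, 1.66% lower). Of the 34 estimates 18 were above 0, against 51.3% of all genes, and no gene had every mouse at 162 µg above every mouse at 18 µg, against 2.15%. Mertk, which mediates uptake of dying cells, was 1.91 to 2.96 at 18 µg (median 2.04) and 2.57 to 4.07 at 162 µg (median 3.47). The controls, at 2.50, 3.36, 3.31, 2.09 and 2.46, lay across both groups. Mertk was higher by 1.01 (2.01-fold, standard error 0.21, adjusted p = 0.0114), in 5 of 5 slides that held both doses, and the call was kept in 31 of 31 alternative fits.

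Adgre1 was 0.24 to 1.02 at 18 µg (median 0.65) and -0.42 to 0.33 at 162 µg (median 0.02), with 5 of 6 mice at 162 µg below all mice at 18 µg. It fell by 0.63 on the log2 scale (standard error 0.16, adjusted p = 0.0340). A second probe gave -0.57 (adjusted p = 0.0361). The call was lost in 8 of 22 fits that left out 1 mouse, 1 of them a control (replicate 3), the smallest change being -0.48 when 162 µg replicate 6 was left out, with median centring (adjusted p = 0.712), with only the 2 groups compared (0.0865) and without the 2 slides that held no control (0.117).

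Itgax, the CD11c antigen of alveolar macrophages and dendritic cells, was 2.93 to 4.20 at 18 µg (median 3.36) and 2.62 to 3.38 at 162 µg (median 2.91), and the groups overlapped. It fell by 0.64 (standard error 0.17, adjusted p = 0.0462), a call lost in 16 of 22 fits that left out 1 mouse, control replicates 2, 3 and 5 among them, and in 5 of 9 other alternatives. Csf1r was -0.55 between the doses (standard error 0.12, adjusted p = 0.0118), under 1.5-fold, with all 6 mice below all mice at 18 µg, against 1.05% of all genes. Its dimmer probes gave -0.15 and 0.04. Marco was 0.80 higher at 162 µg than at 18 µg (adjusted p = 0.108), and without control replicate 3 this passed (0.89, adjusted p = 0.0452).

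**Figure D4:**
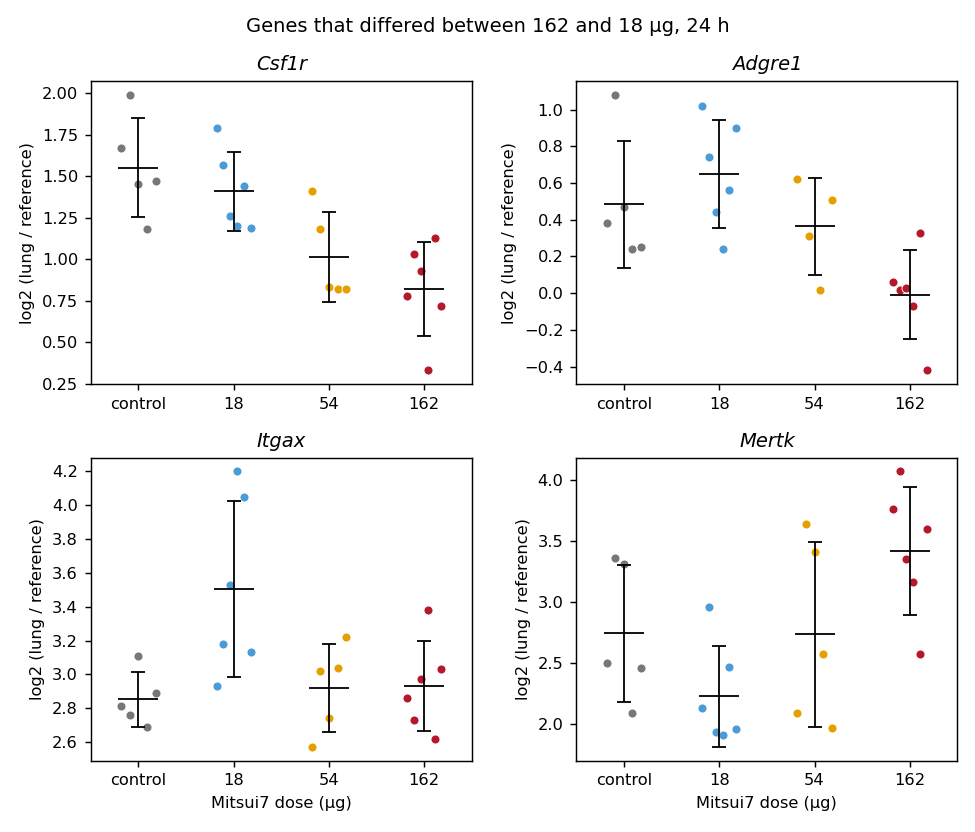
Log2 ratio of lung to reference RNA (y axis) in each mouse for Csf1r, Adgre1, Itgax and Mertk, by dose (x axis), with the mean and SD of each group. All 6 mice at 162 µg lie below all mice at 18 µg for Csf1r, and 5 of 6 lie above them for Mertk.

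Markers of other cells moved as well, and their part in the results above was not tested. Among 11 neutrophil markers, 9 were above 0 at 162 µg with a median of 0.64, and the decoy receptor Il1r2 was called, at 2.36 (adjusted p = 0.00746). Their mean log2 ratio was 1.54 to 4.14 in controls and 1.87 to 4.42 at 162 µg, and all 11 passed the background filter. Among the lymphocyte markers, the B cell gene Ms4a1 (-0.89) and the granzyme Gzma (-1.38) were called lower at 162 µg, and the list's mean log2 ratio was 0.93 to 1.48 in controls and 0.24 to 0.96 at 162 µg. At the same dose the 5 monocyte and interstitial genes of the set had estimates below 0. The further monocyte and interstitial lists had medians of 0.51 and 0.19 there. A link of either to the lymphocyte genes was not tested. The medians of the eosinophil, dendritic, type II alveolar, endothelial and adipocyte, and erythroid markers at 162 µg were 0.16, -0.26, 0.08, 0.06 and 0.02.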

How the data were processed

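The authors deposited intensity values, the median signals of each spot in both channels, not normalized, which the file headers credit to Feature Extraction version 10.7.3.1, and a table of log2 ratios whose normalization is not given in the sources used here. The intensities were used here, without background subtraction, and the deposited log2 table as an alternative. Reference RNA was in Cy3 on every array, so dye and sample were not swapped.

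Outlier spots were left out (7 of 748 values of the genes described), log ratios were loess-normalized within arrays (span 0.3), and replicate spots were summarised by their median for 55681 probes, of which 26413 were named through RefSeq accessions. A gene is represented by its brightest probe, and 10 of the genes had more than 1. Dose and slide were fixed effects in limma 3.58.1 (R 4.3.3) over 22 arrays, with 12 residual degrees of freedom. limma's moderated test stands in for the study's shrinkage F test. p was adjusted over all probes (Benjamini-Hochberg). A gene was above background if its Cy5 signal passed a limit on at least 80% of the arrays of any group. The limit was the trimmed mean (5%) plus 3 trimmed standard deviations of 308 negative control spots. The number of arrays limits the precision.

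Genes and lists were chosen with earlier results of these data known. Of each further list, at most 3 genes called at 162 µg, by size of change, are named. The cell marker lists are neutrophil, eosinophil, dendritic, type II alveolar, endothelial and adipocyte, lymphocyte and erythroid. A further gene of the lymphocyte list is not reported here. Alternatives were normexp, median centring, the deposited table, other slide terms, 2 groups only, other filters, the probe mean and leaving out each mouse. The fit was tested on simulated data with 200 altered probes, drawn at random from those above background. At 18, 54 and 162 µg it found 96%, 94.5% and 96% when the true log2 change was 1.5, with 8, 6 and 8 false calls. When the change was 0.8 it found 74.5%, 67.5% and 74.5%, with 5, 5 and 4 false calls. Noise was drawn for each probe separately, so no simulated mouse stood apart as control replicate 2 did. The shares are averages and do not hold for genes of wide spread, such as Fabp1, whose standard error at 162 µg was 0.47 beside a median of 0.14 over all genes.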

Additional observations from a re-analysis of the deposited data

Results flagged for a closer look

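Single mice lay far from the rest of their group in 10 of 136 sets of values, a gap that chance gives in about 1 of 20 such sets. Control replicate 2, the mouse with high neutrophil markers, was above the other controls for Fcgr1 (2.26, log2 ratio), Csf2rb (1.87) and Adgre1 (1.08). Control replicate 4 was above them for Krt79 (3.80) and Pparg (1.40). Mrc1 was low in replicate 6 at 18 µg (3.65) and in replicate 6 at 162 µg (3.82), which lay on the same slide. Ctsd was high in replicate 6 at 18 µg (1.89), Ms4a7 was high in replicate 1 at 18 µg (0.01), and Csf1 was low in replicate 3 at 162 µg (-1.87).

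Between 162 µg and 18 µg, 4 of 34 genes had an adjusted p of at most 0.05 in the limma fit, against 1354 of 16433 named genes. They were Mertk (1.01, log2 fold change of 162 µg against 18 µg), Itgax (-0.64), Adgre1 (-0.63) and Csf1r (-0.55, under 1.5-fold).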

How the results depend on the processing

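Median centring, which put the median of all genes at -0.26 at 18 µg and -0.19 at 162 µg (main setting -0.02 and -0.01), left no gene called at 18 µg or 162 µg and 1 between the doses. It also gave medians of -0.19 and -0.15 (resident), -0.23 and -0.21 (lysosomal), -0.06 and 0.22 (lipid-associated) and -0.38 and 0.35 (receptors for debris and dying cells) at 18 µg and 162 µg. It changed the sign of 19 of 136 values, among them Trem2 at 18 µg (-0.03, log2). The calls at 18, 54 and 162 µg were 2, 0 and 5 with no fold threshold, 0, 0 and 4 with normexp or the deposited table, 1, 0 and 5 with no slide term, 3, 1 and 6 with slide as a random block, 0, 5 and 6 with only the 2 groups compared, and 2, 2 and 6 without the 2 slides that held no control, an alternative chosen after seeing the data. Over the 39549 probes above background the calls moved as well. At 18, 54 and 162 µg they were 582, 99 and 2002 in the main fit. They were 181, 3 and 552 with median centring, 426, 71 and 1710 with normexp, and 94, 7 and 1376 with the deposited table. They were 320, 73 and 1744 with no slide term and 790, 169 and 2101 with slide as a random block. With only the 2 groups compared they were 154, 919 and 1958, and without the 2 slides 876, 349 and 2399. The cause of these shifts was not tested. With no fold threshold 423, 66 and 1781 of the 16433 named genes passed. Both filter alternatives and the probe mean left the counts of the genes described as they were. With the probe mean, however, the lysosomal median at 162 µg was 0.25.

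Whether replicate numbers paired the mice could not be decided, because some same-numbered mice shared a slide. Deviations of same-numbered mice correlated at 0.171 in the median of 31 pairs, and at -0.169 at the lowest. The correlation was above 0.1 in 20 of these pairs. Pairs of mice from different groups had a median of 0.261 on the same slide and -0.0466 on different slides. With a replicate block in place of slide, 2, 1 and 6 genes were called at 18, 54 and 162 µg, and 3 between 162 µg and 18 µg. Over all probes above background, 864, 226, 2118 and 1565 were called in the same order.

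Leaving out single mice gave 0 to 3 calls at 18 µg (3 without 18 µg replicate 6), 0 to 2 at 54 µg (2 without 54 µg replicate 3), 3 to 6 at 162 µg (6 without control replicate 2 or 54 µg replicate 5) and 1 to 3 between the doses (1 without 18 µg replicate 3 or 5 or 162 µg replicate 1 or 2). Over all probes above background, the calls ranged from 31 to 1013, 7 to 280, 1329 to 2295 and 979 to 1544 in the same order. Marco, Lgals3, Spp1 and Mertk stayed called in all 22 such fits. List medians ranged from 0.25 to 0.45 (lipid-associated, 18 µg), from -0.64 to -0.33 (monocyte and interstitial, 162 µg) and from 0.37 to 0.63 (receptors for debris and dying cells, 162 µg). At 18, 54 and 162 µg the resident median ranged from -0.02 to 0.36, -0.20 to -0.07 and -0.02 to 0.26, and the lysosomal median from 0.09 to 0.32, -0.29 to -0.04 and 0.00 to 0.13. The monocyte median at 18 and 54 µg ranged from -0.21 to -0.01 and -0.34 to -0.09, and that of the receptors from -0.13 to 0.13 and 0.07 to 0.28. The resident median at 18 and 162 µg was below 0 without control replicate 5, and the receptor median at 18 µg, near 0 with all mice, changed sign in several of these fits.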
